A study of Homo sapiens with 9 samples.

Results

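The results concern the K562 arm of a small RNA sequencing study of ERH knockdown: the library of K562 cells given the siRNA siERH-5 against the library of K562 cells given siGFP, an siRNA against a green fluorescent protein gene. These are 2 of the 9 libraries of the series, and the other 7 come from HEK293E. K562 is an established human erythroleukaemia line, and HEK293E is a subline of HEK293 cells of embryonic kidney. K562 cells took up the siRNAs by electroporation with 3 pulses of 1450 V and 10 ms and were harvested 4 days later. HEK293E cells were transfected by lipofection on days 0 and 3 and harvested on day 5, and received siGFP, siControl or siERH-3 (replicates 1 and 2) or siERH-5 (replicate 2). No siControl or siERH-3 library of K562 was analysed here, so ERH is targeted in K562 by a single siRNA. In each library, 18 to 30-nucleotide fragments of 10 μg of total RNA with 30 spike-in RNAs were sequenced, and reads were counted per miRNA hairpin. The hairpins described averaged 10 counts or more over both K562 libraries, 646 of the 1485 in the table, with blank cells read as 0.

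ERH is a small, conserved nuclear protein that binds DGCR8, the RNA-binding partner of DROSHA. DROSHA and DGCR8 form the Microprocessor, which cuts hairpins out of primary miRNA transcripts; DICER then cuts the loop away and 1 strand is loaded into an Argonaute protein. Many hairpins lie side by side in a single transcript, and ERH is known for its part in the cutting of hairpins that are poor substrates on their own and are helped by a neighbour. A messenger RNA is not measured in such libraries, so the depth of the ERH knockdown was not checked here.

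The sequences below are the mature miRNAs and hairpins on which the results turn, from RefSeq (GRCh38.p14), in which 509 of the 646 hairpins have an entry. They are written 5′ to 3′ with the seed, bases 2 to 8, in capitals. The table counts whole hairpins and does not separate the arms, so each value below is that of the hairpin. The first sets share a seed and differ in their ratio.
hsa-miR-181a-5p: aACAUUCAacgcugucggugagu
hsa-miR-181b-5p: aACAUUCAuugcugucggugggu
hsa-miR-212-3p: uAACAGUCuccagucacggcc
hsa-miR-132-3p: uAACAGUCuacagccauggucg
hsa-miR-15a-5p: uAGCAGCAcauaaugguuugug
hsa-miR-16-5p: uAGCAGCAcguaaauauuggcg
hsa-miR-195-5p: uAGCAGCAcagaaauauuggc
hsa-miR-19a-3p: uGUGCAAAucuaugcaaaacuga
hsa-miR-19b-3p: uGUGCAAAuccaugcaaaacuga
hsa-miR-29b-3p: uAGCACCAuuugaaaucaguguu
hsa-miR-29c-3p: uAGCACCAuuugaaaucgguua
hsa-miR-320b: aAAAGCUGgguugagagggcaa
hsa-miR-320c: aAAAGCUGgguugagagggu
hsa-miR-320d: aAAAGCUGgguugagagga

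The next set holds miRNAs with the lowest ratios, of which miR-1908-5p and miR-663a share a seed.
hsa-miR-3677-3p: cUCGUGGGcucuggccacggcc
hsa-miR-7974: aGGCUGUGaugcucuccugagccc
hsa-miR-589-5p: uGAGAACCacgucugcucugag
hsa-miR-1908-5p: cGGCGGGGacggcgauugguc
hsa-miR-663a: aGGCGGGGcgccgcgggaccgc
hsa-miR-421: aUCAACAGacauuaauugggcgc
hsa-miR-374b-5p: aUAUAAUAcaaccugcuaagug
hsa-miR-4521: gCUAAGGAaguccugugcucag

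The third set holds miRNAs with the highest ratios.
hsa-miR-3157-5p: uUCAGCCAggcuagugcagucu
hsa-miR-4772-3p: cCUGCAACuuugccugaucaga
hsa-miR-147b-3p: gUGUGCGGaaaugcuucugcu
hsa-miR-375-3p: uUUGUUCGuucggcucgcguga
hsa-miR-3144-3p: aUAUACCUguucggucucuuua
hsa-miR-580-3p: uUGAGAAUgaugaaucauuagg

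Last come miRNAs that K562 holds and HEK293E hardly does, and the neighbouring hairpins mir-192 and mir-194-2, in which capitals mark the mature arms.
hsa-miR-223-3p: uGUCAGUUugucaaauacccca
hsa-miR-767-5p: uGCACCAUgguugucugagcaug
hsa-miR-105-5p: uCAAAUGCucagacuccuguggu
hsa-miR-488-3p: uUGAAAGGcuauuucuugguc
hsa-miR-4704-5p: gACACUAGgcaugugagugauu
hsa-mir-192: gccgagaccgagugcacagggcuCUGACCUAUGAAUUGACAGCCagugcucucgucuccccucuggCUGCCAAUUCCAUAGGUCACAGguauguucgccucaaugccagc
hsa-mir-194-2: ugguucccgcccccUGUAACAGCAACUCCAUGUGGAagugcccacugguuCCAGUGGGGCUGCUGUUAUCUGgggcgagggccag

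The siGFP library of K562 held 2613890 counts and the siERH-5 library 3320017, next to 2609929 to 3248481 in HEK293E. Of the 1485 hairpins, 1061 were seen with siGFP and 1163 with siERH-5, and 3 counts corresponded to 1.15 and 0.904 RPM, the reads in 1000000. The 10 most counted hairpins took 42.8% of the siGFP counts and 39.4% of the siERH-5 counts. The 6 erythroid hairpins (the mir-144/451 cluster, mir-4732 and both copies of mir-486) held 7.08% and 6.51% of the K562 counts and 0.183% to 0.306% of the HEK293E counts. The copies mir-486-1 (51998 and 69798 counts) and mir-486-2 (51927 and 69732) were nearly equal, and reads they share may enter these shares through each copy. The 15 blood-lineage hairpins held 12.8% and 13.0% against 5.53% to 7.75% in HEK293E. Of these, mir-142, mir-223, mir-146a, mir-146b and mir-126 had more counts in K562 than in any HEK293E library. The mir-181 hairpins, mir-221 and mir-222 had fewer in K562 than in any of them. Hsa-mir-221 had 1198 and 1707 counts against 39280 to 56780, and hsa-mir-181a-1 5105 and 8701 against 21392 to 35446. Some members were absent or nearly so in K562. Of the erythroid list, mir-451b was at 0 in K562 and had at most 1 count in HEK293E. Of the blood-lineage list, mir-155 had 0 and 2 counts in K562 and 70 to 202 in HEK293E. Hsa-mir-150 had 13 and 15 counts in K562 and 5 to 36 in HEK293E. Hairpins of other cell types were scarce. The 11 epithelial and kidney hairpins held 0.286% and 0.333%, with mir-203a at 0, against 0.192% to 0.291% in the kidney line HEK293E. The 11 neural hairpins held 0.314% and 0.386%, with mir-137 at 0, against 0.814% to 1.11%. The 9 muscle hairpins held 0.0040% and 0.0089%, with mir-206 at 0, against 0.0087% to 0.0170%.

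With siERH-5, 44 of the 646 hairpins (6.81%) were at least 2-fold lower than with siGFP, and 65 (10.1%) at least 2-fold higher. The ratios are log2 ratios of CPM, counts in 1000000, plus 1, scaled by the trimmed mean of M-values (TMM). They are shares of the miRNA counts, so a change in all miRNAs together does not show, and fewer cells with a miRNA and less of it per cell cannot be told apart. Each condition is 1 K562 library, so no ratio has a replicate check and none has a p-value. The intervals given below are exact 95% binomial intervals that cover counting error only. They use scaled counts without the added 1, so at low counts they are centred further from 0 than the ratio. The median ratio was 0.11, the quartiles −0.31 and 0.55, and the SD over hairpins 0.73, with 284 hairpins below 0 and 362 above. The scaling moves all of them together. By library totals the median was 0.37, with 23 lower and 109 higher, and by DESeq2 size factors the 2-fold sets held 50 and 46. Families are therefore described relative to the median, which rescaling shifts along with them. The counting interval, without the added 1, lay beyond 0 for 43 of the 44 and 63 of the 65. It lay wholly beyond 2-fold for 23 and 10, whereas the 2-fold sets themselves use the ratio with the added 1. Within 0.1 of the 2-fold line lay 8 lower hairpins inside and 6 outside, and 17 higher ones inside and 18 outside. At the count limit, the 29 hairpins with a mean of 10 to under 12 counts had a median of −0.09, and the 37 left out with 8 to under 10 counts one of 0.07.

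HEK293E shows how far libraries without siERH differ. Between siControl and siGFP, 3.3% of hairpins in replicate 1 and 4.26% in replicate 2 passed 2-fold either way, against 16.9% between siERH-5 and siGFP in K562 and 24.1% to 26.5% between siERH and siGFP in HEK293E. K562 has no such control ratio here. Direction varied with abundance. Among the 173 hairpins averaging 1000 counts or more, 10 were 2-fold lower and 0 higher, whereas both siControl ratios had 0 in that range. Between 100 and 1000 counts, 10 of 156 were lower and 20 higher, and between 10 and 100 counts 24 of 317 were lower and 45 higher. The plot of ratio against abundance shows the higher hairpins confined to the left side.

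**Figure D1:**
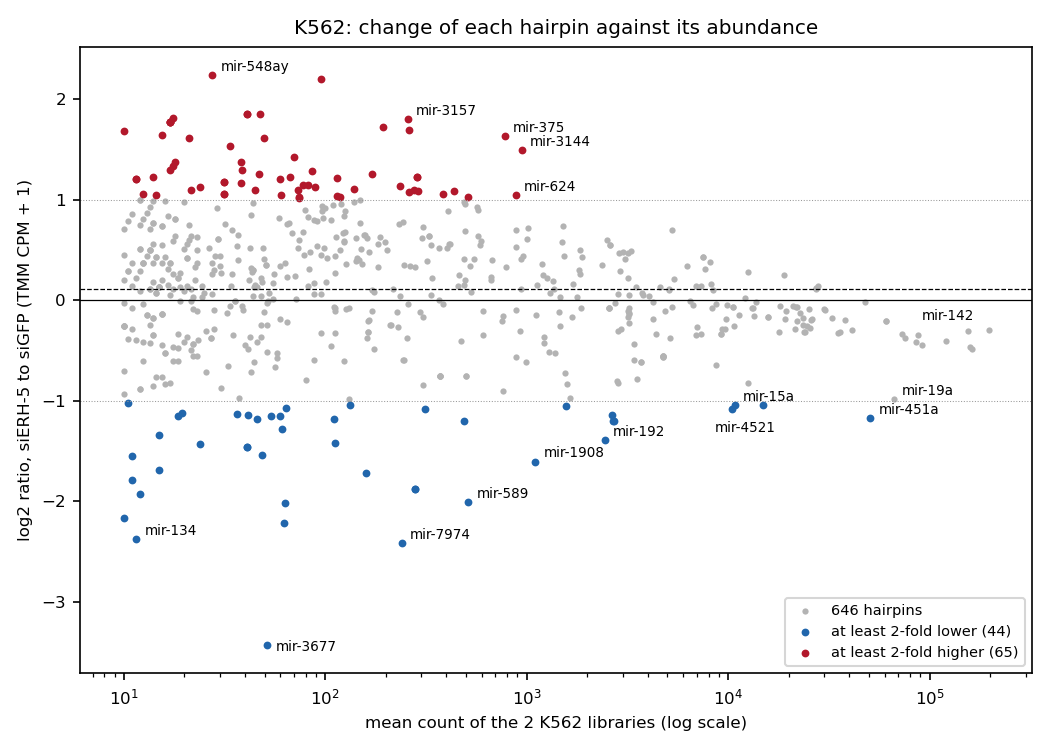
Log2 ratio of siERH-5 to siGFP in K562 (vertical) against the mean count of both libraries (horizontal, log scale), 1 point per hairpin, with 44 lower hairpins in blue and 65 higher in red; the dashed line is the median, 0.11, and dotted lines mark 2-fold. Above 1000 counts there are 10 blue points and 0 red ones.

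The most counted hairpins lay below the median of all hairpins. Hsa-mir-142, which is specific to blood cells, had the highest count, 174339 with siGFP and 219058 with siERH-5, a log2 ratio of −0.30. The 6 hairpins of the oncogenic miR-17-92 cluster on chromosome 13 held 24.2% and 21.4% of all counts. Among them, mir-19b-1 (86036 and 97274 counts) and mir-92a-1 (154742 and 170494) have copies on the X chromosome. These are mir-19b-2 (79707 and 92054) and mir-92a-2 (150188 and 167662). Copies share reads, so how much of those counts comes from chromosome 13 cannot be told. The 6 members of the miR-17-92 cluster lay below the median, 5 of them between −0.49 and −0.30. Hsa-mir-19a stood below the rest, with 74313 and 58196 counts and a ratio of −0.98. In the 8 measured hairpins of the paralogous clusters the median was −0.27, with mir-106b, mir-93 and mir-25 between −0.28 and −0.25. Hsa-mir-21 (78559 and 95770 counts, −0.34), hsa-mir-126 (69280 and 82364, −0.38), hsa-mir-378a (36537 and 45904, −0.30) and hsa-mir-16-2 (32028 and 39681, −0.32) were alike in ratio. Hsa-mir-146b, with 37721 and 57704 counts, stood at −0.01, and hsa-mir-486-1, an erythroid hairpin, at −0.20. Hsa-mir-451a was the only one of the 15 most counted past 2-fold.

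The hairpins with the lowest ratios lay in clusters and alone, in introns, in exons and between genes. Hsa-mir-451a, the erythroid miRNA that matures through Argonaute 2 without DICER, went from 60425 counts to 41320. Its ratio was −1.18 (interval −1.19 to −1.16), 2.26-fold lower, while its neighbour hsa-mir-144 went from 20669 to 35249, a ratio of 0.14. In HEK293E, where mir-451a had a mean of 75.1 counts, its ratios were −0.14 with siERH-5 in replicate 2, −0.24 with siERH-3 in replicate 1 and −0.68 with siERH-3 in replicate 2. None of those passed 2-fold. The siControl ratios were −0.01 and −0.33. The replicate 2 ratios with siERH-5 and siERH-3 share their siGFP library, here and wherever the HEK293E ratios are given in this order.

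The lowest ratios at a mean of 100 counts or more were those of hsa-mir-7974 and hsa-mir-589, which have no measured neighbour. Hsa-mir-7974 (chr19:11495544-11495622, minus strand, in an intron of AC008481.3; hg38, GENCODE 29) went from 374 to 105 counts, a ratio of −2.42 (−2.79 to −2.14). The HEK293E ratios were −2.08, −1.85 and −1.37, so both lines had it far lower. Hsa-mir-589 (chr7:5495819-5495917, minus strand, an intron of FBXL18, an F-box protein gene) went from 743 to 283 counts, −2.01, against −2.00, −2.08 and −1.90 in HEK293E. The siControl ratios of these hairpins lay between −0.23 and 0.01. Hsa-mir-4326, in an intron of ARFGAP1 on chromosome 20, went from 363 to 262, −1.09, and had −0.88, −0.54 and −0.92 in HEK293E.

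Hsa-mir-4521 (chr17:8186945-8187004, plus strand, between genes) was abundant in both lines and differed between them. It went from 12071 to 8778 counts in K562, −1.09 (−1.13 to −1.05), and its HEK293E ratios were −0.29, −0.01 and −0.04 at a mean of 9659 counts. Hsa-mir-1908 (chr11:61815161-61815240, minus strand, overlapping an exon of the fatty acid desaturase gene FADS1) likewise went from 1465 to 741 counts, −1.61, with −0.35, −0.29 and 0.06 in HEK293E. The K562 counting intervals do not reach the HEK293E ratios, but with 1 K562 library per condition the difference between the lines was not tested.

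Hsa-mir-663a, whose mature miRNA has the seed of miR-1908-5p, went from 218 to 100 counts, −1.72, and had −0.79, −1.45 and −0.65 in HEK293E. Its siControl ratios were −0.43 and −0.39, so part of that range appears without siERH. Hsa-mir-3648-1 (chromosome 21, GC content 83.9%) went from 397 to 164 counts, −1.88, and its other copy had the same counts. Its HEK293E ratios were −0.84, −0.42 and −0.62. Of the 14 entries listed as coming from snoRNA, snRNA, tRNA or other structured RNA, 10 were measured, with a median of −0.61. That median rests on copies, since with 1 per set the 8 left had a median of −0.07, 4 below 0 and 4 above. The 4 past 2-fold lower were mir-3648 and mir-3687, 2 copies each that share reads, and hsa-mir-1246 was higher, with 35 and 137 counts (1.28). Hsa-mir-1260b, of the same list, went from 1704 to 1474, −0.84.

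The DGCR8 transcript carries hsa-mir-3618 and hsa-mir-1306 in exons, and the Microprocessor cuts it there and so limits its own partner. Hsa-mir-1306 (chr22:20086058-20086142, plus strand) went from 1808 to 1345 counts, −1.05 (−1.16 to −0.95), and had −1.88, −1.62 and −1.85 in HEK293E. Hsa-mir-3618 had 24 and 15 counts, −1.13, with an interval of −2.34 to −0.32. Both were lower, and for mir-3618 the depth gives little precision.

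FTX, the non-coding RNA gene on the X chromosome near XIST, hosts 2 clusters in its introns. In the first, hsa-mir-421 went from 589 to 393 counts (−1.20) and hsa-mir-374b from 3136 to 2192 (−1.14). These neighbours were lower by nearly the same amount. In HEK293E mir-421 had −1.39, 0.02 and −1.07 and mir-374b −0.69, −0.10 and −0.52, and the siControl ratios of both were 0.51 to 0.78, which shows that these hairpins also move between control libraries. Hsa-mir-374c overlaps mir-374b on the other strand and had 132 and 88 counts, −1.18. How strand entered the counting is not given in the sources used here, so reads of these cannot be told apart. In the second cluster, hsa-mir-374a went from 6613 to 8082, −0.34, and hsa-mir-545 from 227 to 506, 0.52.

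Below a mean of 100 counts, 24 hairpins were 2-fold lower, and some of the lowest ratios of all are there. The hairpins of this paragraph were chosen after their values were seen. Hsa-mir-3677 (chr16:2270713-2270772, plus strand) went from 93 counts to 10, −3.43 (−4.95 to −2.90), the lowest of the 646. In HEK293E it had −3.70, −3.79 and −4.48, against 0.16 and −0.24 with siControl. Its neighbour hsa-mir-940 went from 991 to 998 counts, −0.62. Hsa-mir-212 (chr17:2050271-2050380, minus strand), a miRNA known from neurons, had 96 and 29 counts, −2.22 (−3.01 to −1.74), with −3.97, −2.64 and −3.20 in HEK293E. Hsa-mir-132 lies beside it and has the same seed, and went the other way, from 851 to 2189 counts, a ratio of 0.73. Hsa-mir-1275 had 94 and 33 counts, −2.02, whereas HEK293E gave 1.30, −0.05 and 1.48.

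The 15 highest ratios at a mean of 100 counts or more were 1.05 to 1.80, and all belong to hairpins with fewer than 1000 counts on average. Hsa-mir-3157 (chr10:96064315-96064399, minus strand, an intron of ENTPD1-AS1) went from 79 to 435 counts, 1.80 (1.48 to 2.20). In HEK293E it had 1.56, 1.48 and 1.33, with −0.21 and −0.19 for siControl. Hsa-mir-3144 (chr6:120015179-120015257, plus strand, between genes) went from 353 to 1540, 1.49, and had 2.15, 2.32 and 1.81. Hsa-mir-580, in an intron of LMBRD2 on chromosome 5, went from 72 to 271, 1.26, and had 1.88, 1.20 and 1.26. These hairpins were past 2-fold in K562 and in all 3 HEK293E ratios, as were hsa-mir-616 in an intron of DDIT3 (106 and 365 counts, 1.14), hsa-mir-624 in an intron of STRN3 (420 and 1344, 1.05) and hsa-mir-548o-2 in an intron of RALGAPB (123 and 450, 1.23).

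Others were higher in K562 to a degree HEK293E did not show throughout. Hsa-mir-4772, in an intron of the interleukin 18 receptor gene IL18RAP, went from 62 to 324 counts, 1.72, against 0.90, 1.08 and 0.69. Hsa-mir-147b, in an exon of C15orf48, went from 86 to 437, 1.69, against 1.21, 0.23 and 0.63. Hsa-mir-2110 went from 203 to 672, 1.09, against 0.74, −0.15 and 0.47, and hsa-mir-5001 from 63 to 214, 1.11, against 1.00, −0.12 and 0.11. The siControl ratios of mir-5001 were −0.86 and −0.83. Hsa-mir-3657, in an intron of NAA25, went from 134 to 445, 1.09, against 0.97, 0.72 and 0.81.

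Hsa-mir-375, known from pancreatic islets and neuroendocrine cells, was higher in K562 and lower in HEK293E. It lies between genes on chromosome 2 (219001645 to 219001708, minus strand). Its counts were 268 with siGFP and 1289 with siERH-5, a ratio of 1.63 (1.45 to 1.83), and the HEK293E ratios were −0.43, −1.04 and −0.78. Hsa-mir-597, in an intron of the tankyrase gene TNKS, went from 181 to 586 counts, 1.06, and had −0.24, −0.31 and −0.22 in HEK293E, where siControl gave −0.44 and −0.46.

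**Figure D2:**
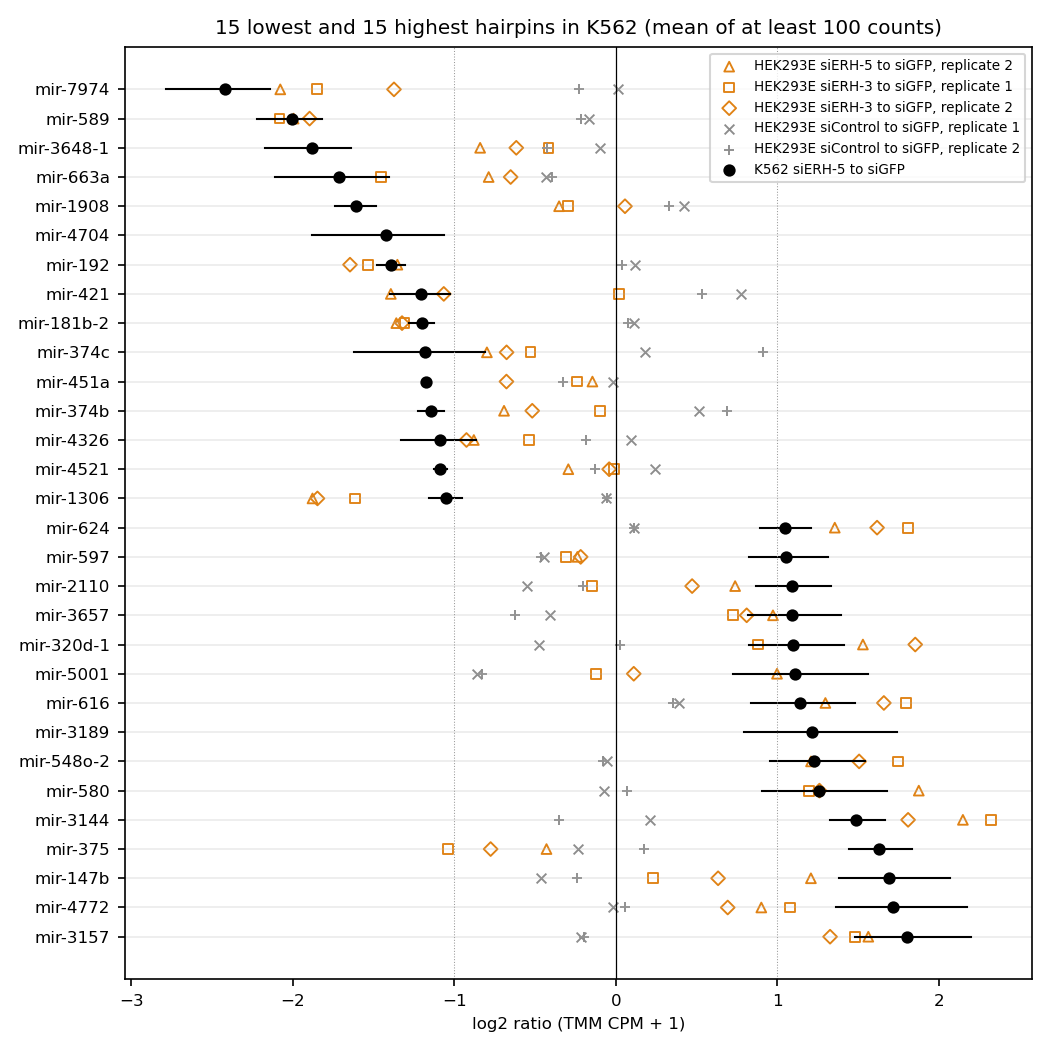
Log2 ratios (horizontal) of the 15 lowest and 15 highest K562 hairpins averaging 100 counts or more: black points are K562 with the counting interval as a bar, open orange symbols the 3 HEK293E siERH ratios, grey crosses the 2 HEK293E siControl ratios. Mir-7974, mir-589, mir-192, mir-181b-2 and mir-1306 lie past 2-fold lower in all 4 siERH ratios. Mir-375 lies at 1.63 in K562 and below 0 in HEK293E, and mir-4704 and mir-3189 have no HEK293E ratio.

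The primate-specific mir-548 family, which derives from transposable elements, lay mostly on the higher side. It was not listed beforehand and was looked at because several members had high ratios. Of its 41 measured hairpins (32 sets, since copies of one name share reads), 38 lay above the median of all hairpins and 3 below, and the median was 0.61. Of the 41, 8 were 2-fold higher and 0 lower, where 10.1% and 6.81% of all 646 hairpins were. The members ranged from −0.18 to 2.24 at mean counts of 12 to 1501. Hsa-mir-548ay, the highest, had 5 and 50 counts, an interval of 1.38 to 4.38. In HEK293E, 36 of them had family medians of 1.17, 1.50 and 1.24 with siERH and 0.09 and 0.21 with siControl (33 and 30 hairpins). The family has a median GC content of 35.2%, against 51.1% over all 646.

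Members of 1 seed group often had different ratios. In the miR-15/16 group, regulators of the cell cycle, hsa-mir-15a went from 12360 to 9253 counts (−1.05) and hsa-mir-15b from 13382 to 11640 (−0.83). Their neighbours hsa-mir-16-1 and hsa-mir-16-2 had −0.33 and −0.32, and are copies whose reads cannot be separated. Hsa-mir-195 (61 and 137 counts, 0.52) and hsa-mir-497 (84 and 201, 0.62), of a separate cluster on chromosome 17, stood above the median. In the miR-181 group, which acts in lymphocyte development, hsa-mir-181b-1 went from 3226 to 2171 (−1.20) while hsa-mir-181a-1 went from 5105 to 8701 and hsa-mir-181c from 339 to 576 (both 0.14). Hsa-mir-181d had 148 and 175 counts, −0.38.

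Within the miR-19 group mir-19a, at −0.98, was below mir-19b-1 at −0.45 and mir-19b-2 at −0.42. Among miR-29 hairpins, which target collagens, hsa-mir-29c went from 3724 to 3335 (−0.79), hsa-mir-29a from 6175 to 7907 (−0.27) and hsa-mir-29b-2 from 3805 to 6332 (0.11). Hsa-mir-192 and hsa-mir-215 share a seed and had −1.39 and −0.53, the latter from 16 and 16 counts. Hsa-mir-502 and hsa-mir-501 had −0.97 and −0.15. In the miR-320 group, hsa-mir-320b-1 (8566 and 12645 counts) stood at −0.07, hsa-mir-320c-1 (294 and 851) at 0.90 and hsa-mir-320d-1 (127 and 425) at 1.10. The less counted members had the higher ratios. Hsa-mir-320a, with 22119 and 29957 counts, had −0.19. HEK293E gave mir-320d-1 1.53, 0.88 and 1.86.

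The let-7 group, which restrains growth and pluripotency genes, lay wholly on the lower side. Its 12 hairpins, mir-98 included, all lay below the median of all hairpins, between −1.08 and −0.09, with a median of −0.61. Hsa-mir-98 (75 and 53 counts, −1.08) and hsa-let-7d (153 and 113, −1.04) were lowest, hsa-let-7g (836 and 690) had −0.90 and hsa-let-7a-1 (3670 and 3700) −0.62. The highest, hsa-let-7c, had 18 and 26 counts. HEK293E differed: the median of the same 12 was 0.36, 0.12 and 0.87, and the siControl ratios of hsa-let-7a-1 were 0.02 and 0.60.

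**Figure D3:**
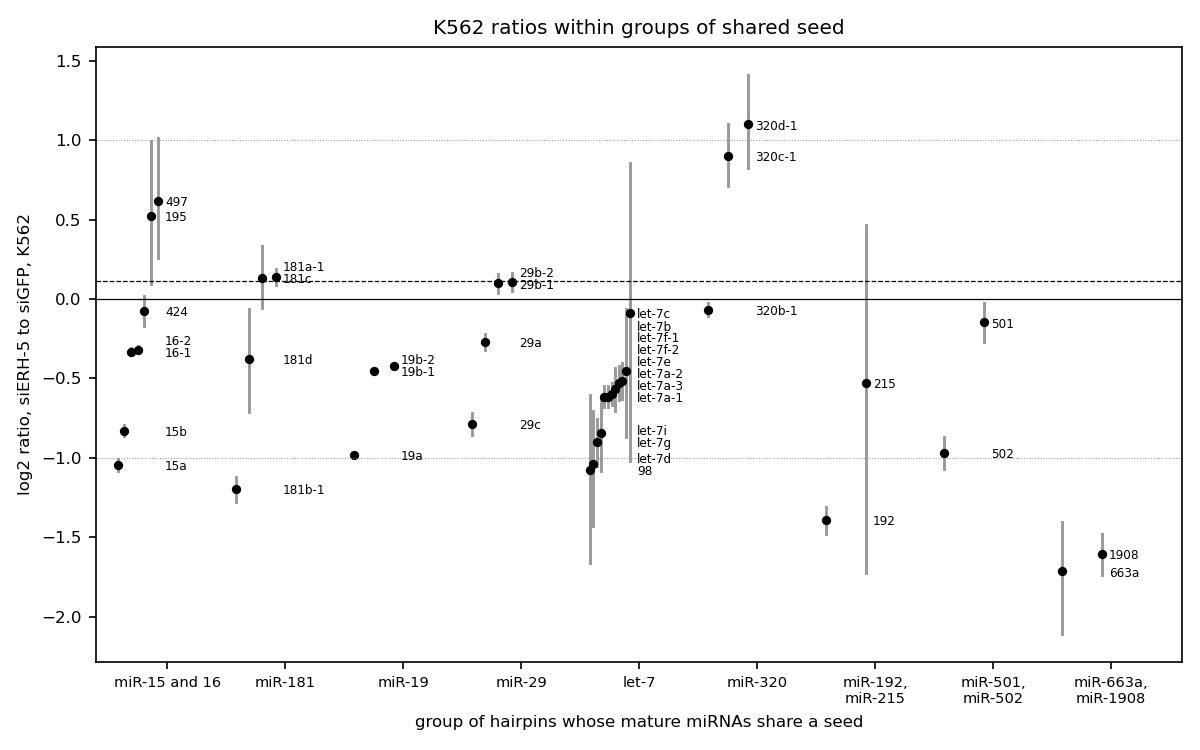
Log2 ratio of siERH-5 to siGFP in K562 (vertical) for hairpins grouped by the seed their mature miRNAs share; points are hairpins, grey bars counting intervals, labels are spaced to be legible, the dashed line is the median of all hairpins and dotted lines mark 2-fold. Hsa-mir-181b-1 lies at −1.20 with mir-181a-1 at 0.14, whereas the 12 let-7 hairpins all lie below 0.

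Hairpins with a neighbour were lower than those without. Of the 646, 171 lie within 10 kb of another measured hairpin on their strand, with a median of −0.25, 25 of them 2-fold lower and 7 higher. The other 475, among which a hairpin beside only copies of its own name would fall, had a median of 0.26, with 19 lower and 58 higher. At a mean of at least 100 counts, 12 of 109 clustered hairpins were lower and 0 higher, and of 220 solitary ones 8 and 20. Clustered hairpins are on average more abundant, and abundance moves with the ratio as given above. The share of each in the difference was not tested.

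Within a cluster, where the transcript is shared, the scaling of the libraries drops out. In the 36 clusters with at least 2 members of 100 counts or more (95 hairpins), the ratios of 1 cluster spanned 0.51 at the median, and 6 clusters spanned 1 or more. The widest pair was hsa-mir-192 and hsa-mir-194-2, p53-responsive miRNAs of kidney, gut and liver, on chromosome 11 (mir-192 at 64891137 to 64891246, mir-194-2 at 64891355 to 64891439, minus strand, overlapping exons of MIR194-2HG). Hsa-mir-192 had 3074 and 1809 counts and hsa-mir-194-2 1904 and 4110. The share of mir-194-2 in the pair was 38.2% in the siGFP library (36.9 to 39.6) and 69.4% in the siERH-5 library (68.2 to 70.6). In HEK293E that share was 39.4% and 49.1% with siGFP, 42.3% and 53.6% with siControl, 79.7% and 81.4% with siERH-3 and 81.3% with siERH-5. All 3 siERH libraries of HEK293E lay above its 4 control libraries, as K562 siERH-5 lay above K562 siGFP. The other copy, mir-194-1 on chromosome 1, shares reads and gave a log2 change of 1.86 against 1.88.

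The miR-181 pairs behaved alike. The share of hsa-mir-181a-1 against hsa-mir-181b-1 was 61.3% with siGFP and 80.0% with siERH-5. The 4 HEK293E control libraries had 64.6% to 65.6%, and the 3 with siERH 79.8% to 80.4%. The 2 loci of this pair, on chromosomes 1 and 9, share reads and count once.

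The erythroid pair changed in K562 and could hardly be measured in HEK293E. The share of hsa-mir-144 against hsa-mir-451a was 25.5% with siGFP and 46.0% with siERH-5, a log2 change of 1.32. In HEK293E the pair had only 103 to 170 counts per library. There mir-144 made up 38.2% to 47.6% without siERH and 38.0%, 53.6% and 51.2% with it, so the groups overlapped.

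The CLCN5 cluster on the X chromosome has 8 measured hairpins in introns of a chloride transporter gene, with ratios from −0.97 to 0.47. Hsa-mir-502, the last, had 1830 and 1442 counts (−0.97), and its neighbour hsa-mir-660 2020 and 3809 (0.29). Hsa-mir-362 (2024 and 4330, 0.47) and hsa-mir-188 (993 and 2085, 0.44) were highest, and hsa-mir-532 (3200 and 3648) had −0.44. Against mir-502, the share of mir-660 was 52.5% with siGFP and 72.5% with siERH-5. HEK293E had 51.2% to 60.6% without siERH and 72.3% to 73.6% with it.

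The remaining cluster past 1 holds the GC-rich hairpins hsa-mir-6724-1 and hsa-mir-3648-1 on chromosome 21, both present in several copies. Hsa-mir-6724-1 had 388 and 353 counts and hsa-mir-3648-1 397 and 164, and the share of mir-6724-1 was 49.4% with siGFP and 68.3% with siERH-5, a log2 change of 1.14. In HEK293E the changes were 1.06, −0.66 and 0.01, so this one was not repeated across the siERH libraries there.

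Other pairs changed by less than 2-fold in their relation. Hsa-mir-425 went from 17046 to 12762 counts (−1.05) and its neighbour hsa-mir-191 from 18836 to 25276 (−0.20), a change of 0.84. Hsa-mir-29b-2 against hsa-mir-29c changed by 0.89, hsa-mir-143 against hsa-mir-145 by 0.86, hsa-mir-15a against hsa-mir-16-1 by −0.72 and hsa-mir-18a against hsa-mir-19a by 0.64. A few clusters hardly moved within. The sensory-organ cluster of hsa-mir-183, hsa-mir-96 and hsa-mir-182 had 0.07, 0.07 and 0.10, the cluster of hsa-mir-106b, hsa-mir-93 and hsa-mir-25 spanned 0.03, and hsa-mir-30b and hsa-mir-30d 0.04. The 6 hairpins of the mir-30 list and the 6 of the mir-23/27/24 list all lay below the median of all hairpins and within 0.32 of each other.

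**Figure D4:**
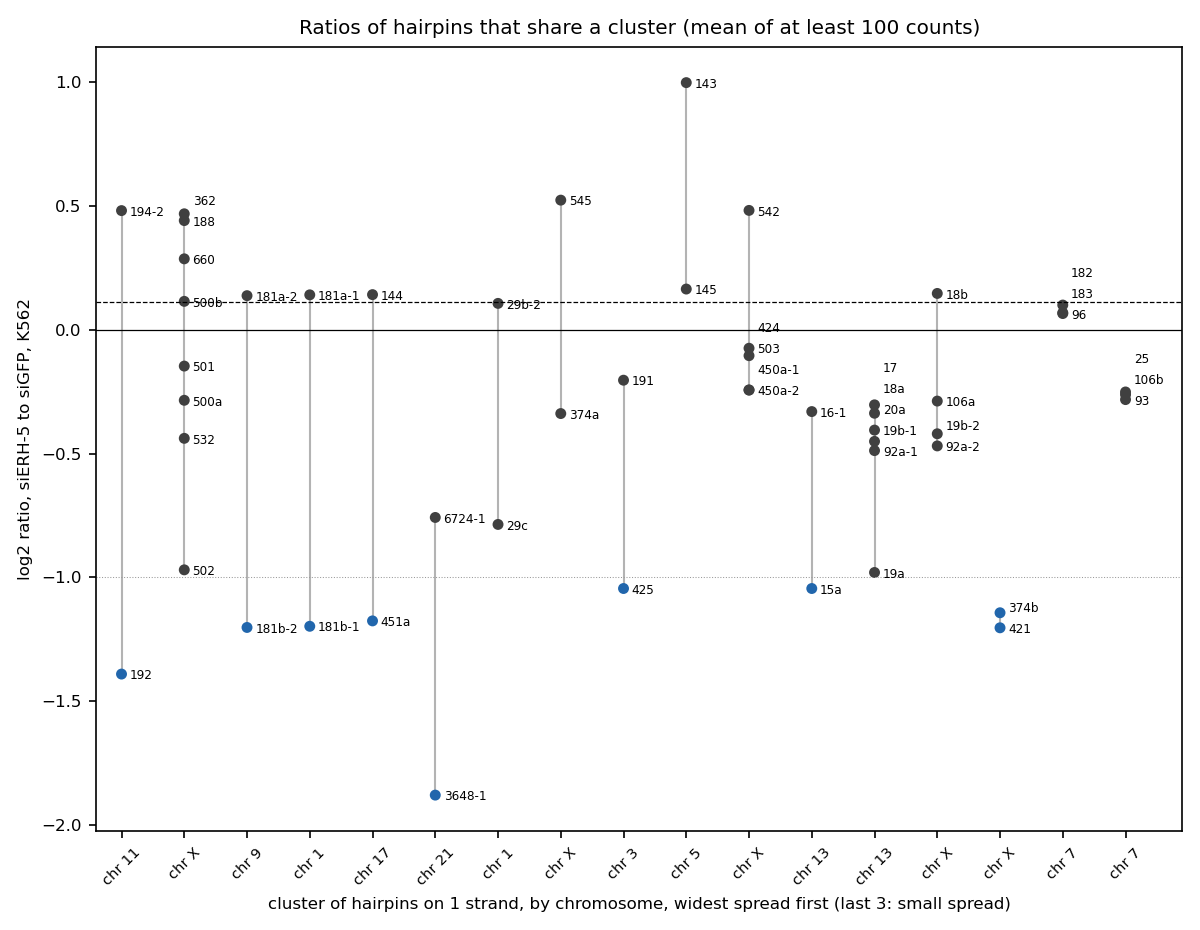
Log2 ratio of siERH-5 to siGFP in K562 (vertical) for the members of 17 clusters, 1 column each, labelled by hairpin number with labels spaced to be legible; blue points are at least 2-fold lower, the dashed line is the median of all hairpins. The widest columns hold mir-192 at −1.39 under mir-194-2 at 0.48 and mir-502 at −0.97 under mir-362 at 0.47, and the last 3 columns span under 0.1.

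Over 55 pairs of neighbours, counting copies once, 24 changed by at least 0.5 in their log2 relation and 5 by at least 1. In 16 of the 24 the lower member was the downstream one, as in all 5 of the widest, and in 8 the upstream one. Pairs of 1 cluster overlap, so a hairpin can count on both sides. Hsa-mir-19a is the downstream lower member beside mir-18a and the upstream one beside mir-20a. The downstream share over all 55 pairs is not given here. The lower member had the weaker predicted fold in 13 of 24 by total folding energy and in 11 by energy per nucleotide, had the higher GC content in 11, and was the more counted with siGFP in 12. These counts describe 2 libraries and have no test. The same direction was found in all 3 HEK293E ratios for 17 of the 24 pairs, and the share over all pairs is not given here. The direction was opposite in all 3 for 2, hsa-let-7e with hsa-mir-125a and hsa-mir-374a with hsa-mir-545.

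Mirtrons and mir-484, which are made without the Microprocessor, are a reference of a kind. Of the 11 listed, 6 were measured, and 0 were past 2-fold, where 16.9% of all 646 hairpins were. With only 6 hairpins, a count of 0 cannot be told apart from that share. Hsa-mir-484 had 10870 and 16584 counts (−0.02), hsa-mir-877 403 and 660 (0.08) and hsa-mir-1226 187 and 266 (−0.12). The remaining 3, hsa-mir-1229, hsa-mir-1227 and hsa-mir-1237, had at most 45 counts in a library and ratios of −0.01, −0.45 and −0.62. The median of the 6 was −0.07, and all lay below the median of all hairpins.

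Of the 646 hairpins, 90 were hardly seen in HEK293E, with a mean under 10 counts over its 7 libraries, and 6 of those had no count there. They held 1.48% of the siGFP counts and 1.63% of the siERH-5 counts. Their median ratio was 0.10, next to 0.11 for the other 556. Of the 90, 8 were 2-fold lower, which is 8.89% against 6.47% of the others, and 6 higher, 6.67% against 10.6%. At a mean of at least 100 counts there were 21 of them, with a median of −0.04, 1 lower and 1 higher, and 308 others with −0.03, 19 lower and 19 higher. Below 100 counts the values lay further apart. There the 69 had a median of 0.13, with 7 lower and 5 higher, and the other 248 one of 0.28, with 17 lower and 40 higher.

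Hsa-mir-223, the myeloid miRNA, made up most of this group, with 32446 and 43807 counts (−0.19) and 1 to 25 counts in HEK293E. Hsa-mir-3667, in an intron of C22orf34, had 619 and 1298 counts (0.44). A cluster in introns of GABRA3 on the X chromosome lay on the lower side. Hsa-mir-105-1 had 522 and 477 counts, −0.75 (−0.94 to −0.58), and hsa-mir-767 545 and 663, −0.34. Hsa-mir-135a-1 (356 and 832, 0.59), hsa-mir-488 in an intron of ASTN1 (251 and 557, 0.52), hsa-mir-548x (318 and 655, 0.41) and hsa-mir-548ax (127 and 279, 0.50) lay above the median. Hsa-mir-1247, in an exon of DIO3OS, had 123 and 124 counts, −0.60, and hsa-mir-3689b 92 and 132, −0.10.

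Of these named hairpins, 2 were past 2-fold. Hsa-mir-4704 (chr13:66218250-66218324, plus strand, between genes) went from 143 counts to 80, −1.42 (−1.88 to −1.06). In HEK293E its highest count was 2. Hsa-mir-3189 (chr19:18386562-18386634, plus strand), in an intron of the stress-response gene GDF15, had 49 and 181 counts, 1.22 (0.79 to 1.74), and at most 6 counts in HEK293E.

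**Figure D5:**
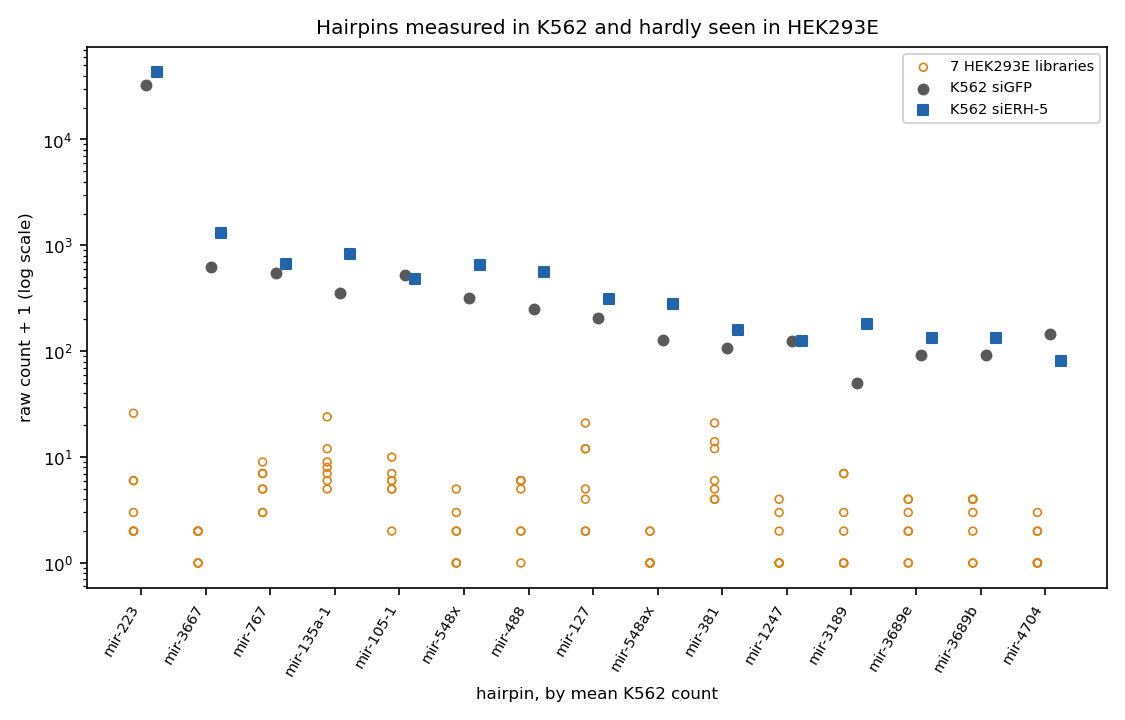
Raw counts plus 1 (vertical, log scale) of the 15 most counted hairpins among those with a mean under 10 counts in HEK293E: orange circles are the 7 HEK293E libraries, grey points K562 siGFP, blue squares K562 siERH-5. All K562 values lie above all HEK293E values, which follows from how the hairpins were chosen. The siERH-5 library is the deeper, and mir-4704 and mir-105-1 have fewer counts with siERH-5.

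The imprinted cluster on chromosome 14, expressed from the maternal chromosome, supplied 32 of the 90. In K562, 35 of the 45 hairpins of this list in the table were measured, at 1592 and 2059 counts summed over the list. Their median was −0.07, with 26 below the median of all hairpins and 9 above, and 6 (mir-134, mir-758, mir-299, mir-494, mir-379 and mir-487b) past 2-fold lower and 0 higher, beside 6.81% and 10.1% of all 646 hairpins. Hsa-mir-376c (140 and 200 counts, −0.11), hsa-mir-381 (107 and 157, −0.07) and hsa-mir-127 (207 and 311, −0.04) had the highest counts and hardly moved. Hsa-mir-134 had 20 and 3 counts, −2.38 (−5.76 to −1.61), hsa-mir-758 19 and 5, −1.93 (−4.33 to −1.08), and hsa-mir-299 65 and 32, −1.55 (−2.31 to −1.02). The counting intervals of these 3 lie past 2-fold lower, on counts without the 1 CPM that the ratios include.

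Lists of other cell types were examined in the same way, beside 6.81% of all 646 hairpins past 2-fold lower and 10.1% higher. These lists are too short for their counts to be told apart from those shares. Of 9 measured epithelial and kidney hairpins, 1 was past 2-fold lower, mir-192, and hsa-mir-200c (242 and 436 counts) and hsa-mir-141 (325 and 599) had 0.22 and 0.25. Of 7 measured neural hairpins 0 passed, with hsa-mir-9-1 (2074 and 3043 counts) at −0.07 and hsa-mir-129-2 (90 and 220) at 0.65. The 6 measured muscle hairpins had a median of 0.93, and 6 lay above the median of all hairpins. At 8 to 107 counts, 3 were past 2-fold higher, or 2 of 4 with copies counted once. Hsa-mir-133a-1 had 13 and 50, and its copy cannot be told apart from it. The summed counts of the muscle list were 105 and 295, and its medians lay below 0 in all 3 HEK293E siERH ratios.

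Set beside HEK293E, the K562 ratios had the same general order. Over the 558 hairpins measured in both siERH-5 to siGFP ratios, the correlation was 0.56 by Pearson's r and 0.54 by Spearman's rho. At a mean of at least 100 counts in K562, 312 hairpins gave 0.59 and 0.53. The points share 2 libraries on each axis, the same siRNA and the same sequence composition, and hairpins are not independent replicates. At 2-fold, 7.95%, 10.2% and 6.38% of hairpins were lower in the HEK293E siERH ratios, in the order used above, and 18.6%, 15.6% and 17.7% higher. Of 35 K562-lower hairpins with all 3 HEK293E ratios, 27 were below 0 in all 3, 10 past 2-fold in all 3 and 2 above 0 in all 3. Of 57 K562-higher hairpins, 43 were above 0 in all 3, 25 past 2-fold in all 3 and 6 below 0 in all 3. In all, 541 hairpins had the 3 HEK293E ratios. The share of those on 1 side in all 3 is not given here, and the percentages above are for single ratios. The 3 ratios are also not independent, since those of replicate 2 share a siGFP library.

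GC content moved with the ratio across hairpins. Over 646 hairpins Spearman's rho was −0.25 for GC content, −0.14 for the predicted folding energy per nucleotide and 0.02 for length. In the fifth of hairpins with the least GC (20.3% to 39.8%) the median ratio was 0.44, with 3 lower and 21 higher, and in the fifth with the most (64.0% to 86.4%) it was −0.13, with 12 lower and 4 higher. The hairpins between, cut the same way, had medians of −0.01, 0.08 and 0.07, so the ends carried the slope. The HEK293E siControl ratios also sloped with GC content, from 0.06 to −0.10 in replicate 1 and from 0.18 to −0.24 in replicate 2. The part of library-level GC differences in the K562 slope was not tested. By position, 381 hairpins in introns had a median of 0.13, 144 between genes 0.20 and 121 overlapping exons −0.06.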

How the data were processed

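Per the submitters' processing notes, reads were handled with cutadapt, Bowtie2 and bedtools on hg38; versions, strand use and the treatment of reads that match several hairpins are not given in the sources used here. The authors deposited a count per hairpin and library and a table of RPM, which equals the count plus 1 over the sum of the counts plus 1, times 1000000, to within a relative difference of 1.14e-09. The counts were used, with 2336 blank cells of the whole table read as 0. Hairpins averaging 10 counts or more in K562 were scaled by TMM (edgeR 4.0.16, R 4.3.3), and the log2 ratio of CPM plus 1 was taken. HEK293E ratios were made alike within a replicate number, each with its own hairpins and factors. No model was fitted to 1 library per group. Counting intervals are exact (Clopper-Pearson, 95%) and cover counting error only, since PCR copies are not separated. They were computed from the counts and scaling factors without the added 1 CPM. The spike-in RNAs were not used here.

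Positions, hosts, GC content and folding energy (RNAfold 2.7.2) come from GENCODE 29 transcripts, which matched 646 of 646 hairpins. Named hairpins are, 1 copy per set, the 15 lowest and 15 highest ratios at a mean of at least 100 counts, the 15 most counted, the 15 most counted of those hardly seen in HEK293E, members of clusters (10 kb, 1 strand) whose ratios span at least 1, and members of the lists. Other hairpins in the text, such as mir-425, mir-191, mir-143, mir-145, mir-374a and mir-545, fall under none of these rules. Hairpins and lists were chosen with earlier results of these data known, so nothing here is independent support. Labels do not say whether libraries are separate cultures. The ratio step was tested on simulated data. Alternatives were other scalings, pseudocounts, count limits, copies and partner copies.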

Additional observations from a re-analysis of the deposited data

Results flagged for a closer look

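A few hairpins were past 2-fold higher in K562 and below 0 in all 3 HEK293E siERH ratios, and none of these differences between the lines was tested, since K562 has 1 library per condition. Hsa-mir-375 had a log2 ratio of 1.63 in K562 and −0.43, −1.04 and −0.78 in HEK293E. Hsa-mir-597 had 1.06 against −0.24, −0.31 and −0.22, at 181 and 586 K562 counts. Hsa-mir-133a-1 and hsa-mir-133a-2, copies with the same K562 counts of 13 and 50, had 1.18 each, against −0.28, −1.29 and −0.85 for the first. Hsa-mir-133b had 1.12, from 10 and 38 counts, against −0.27, −1.38 and −0.91.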

How the results depend on the processing

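With library totals in place of TMM, 23 hairpins were 2-fold lower and 109 higher, the median of all was 0.37 and that of the hairpins hardly seen in HEK293E 0.35. With the authors' RPM plus 1 the same values were 23, 102, 0.35 and 0.33. DESeq2 size factors put the median at −0.000281. A pseudocount of 10 CPM gave 21 lower and 15 higher. With no limit on low counts, 116 were higher and 482 hairpins counted as hardly seen in HEK293E. With a mean of at least 100 counts, 16 were lower and 25 higher, the median was 0.020, and 21 were hardly seen in HEK293E; a limit of under 3 counts in HEK293E left 46. Fewer hairpins enter under those limits by construction. The 31 named hairpins past 2-fold, with the copies mir-181b-1 and mir-181b-2 counted apart, kept their direction in all 278 alternatives. They stayed past 2-fold in 247. All alternatives reuse the same 2 libraries, and the median moved by at most 0.26. Rescaling could thus not turn a ratio past 1, so the kept direction was fixed beforehand and is no support. Of the 39 named hairpins short of 2-fold, 9 changed sign in 19 of 350 alternatives, 16 of them with library totals or RPM; mir-486-1 went from −0.20 to 0.08 and mir-223 from −0.19 to 0.09 with library totals. The sign of a list's median relative to all hairpins was kept in 181 of 187 alternatives. For the list from snoRNA, snRNA and tRNA it turned from −0.73 to 0.12 with no limit on low counts, and for the epithelial and kidney list from 0.11 to −0.21 with 1 copy per set. For mirtrons and mir-484 it turned to 0.02 and for the CLCN5 cluster to 0.02 at a mean of at least 100 counts, and for the cluster of mir-183 to 0.10 there and to 0.0019 with 10 CPM. Pairs of neighbours past 2-fold gave nearly the same change with their copies.

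No paired analysis was possible because the K562 groups share 1 replicate number, and leaving out a replicate was not possible with 1 library per condition. Below a mean of about 100 counts, depth sets wide counting intervals.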
